A study of Mus musculus with 4 samples.

Results

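Early response genes of the EGR, NR4A and DUSP families were examined in regulatory T (Treg) cells exposed to the epithelial cytokine TSLP. The 10 genes were Egr1, Egr2, Egr3, Nr4a1, Nr4a2, Nr4a3, Dusp1, Dusp2, Dusp5 and Dusp6. Each was taken by its exact name from a table of 24418 genes, and all 10 passed the filter on low values. Treg cells were sorted as CD4+YFP+ cells negative for the dead-cell dye 7-AAD from spleens and lymph nodes of sex-matched Foxp3YFP-Cre mice, 8 to 12 weeks old. In these mice, which supplied both groups, YFP and Cre are made from the Foxp3 locus, so that the sort follows Foxp3 itself. The cells were held for 3 h with PBS or with 100 ng/mL TSLP, and RNA was sequenced from 2 samples per group, PBS 1, PBS 2, TSLP 1 and TSLP 2. The sources used here do not say whether a sample pooled mice, whether samples came from separate animals or cultures, or what the numbers 1 and 2 share, so p-values measure only the spread between these samples.

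EGR proteins are zinc finger transcription factors and NR4A proteins are orphan nuclear receptors, and both families are switched on soon after a T cell receives an antigen signal. Many DUSP proteins are phosphatases that take phosphates off MAP kinases, and their own genes are switched on by the kinase pathways they later turn down. In Treg cells, NR4A receptors are known to help maintain Foxp3 and the Treg program, and Egr2 and Egr3 restrain T cell activation. A shared property of such genes is that their RNAs appear and disappear fast.

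The 4 libraries held 11328132 (PBS 1), 10724392 (PBS 2), 11761234 (TSLP 1) and 10271571 (TSLP 2) reads on genes. The 10 genes together took 0.732% and 0.617% of these reads in PBS 1 and PBS 2, and 0.718% and 0.574% in TSLP 1 and TSLP 2. Both replicate 1 libraries were thus above both replicate 2 libraries, and PBS and TSLP overlapped. The NR4A genes made up most of this share, from 0.417% of all reads in TSLP 2 to 0.535% in PBS 1. The DUSP share followed the same order, from 0.0908% in TSLP 2 to 0.140% in PBS 1. The EGR share did not, being lowest in PBS 1 (0.0575%) and highest in PBS 2 (0.0700%).

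Levels of different genes were compared as RPKM, the reads per kilobase of exon scaled to the total of reads on genes, given as the mean over all 4 libraries. Nr4a1 was the most abundant of the 10 at 650 ± 145 (SD, n = 4), which put it between rank 19 and rank 32 among all genes of a library. Nr4a3 followed at 326 ± 34.2 (SD, n = 4) and was below Nr4a1 in all 4 libraries. Nr4a2 was at 145 ± 18 (SD, n = 4) and overlapped with Dusp1 at 171 ± 33.6 (SD, n = 4) and Dusp2 at 137 ± 40.2 (SD, n = 4). Dusp1 was the highest of these 3 in every library although their ranges overlapped, and Nr4a2 and Dusp2 changed places between libraries. Dusp5, at 86.6 ± 14.6 (SD, n = 4), overlapped with Egr1 at 69.2 ± 5.45 (SD, n = 4), and Egr1 with Egr2 at 63.5 ± 9.50 (SD, n = 4). Egr3, at 28.4 ± 3.94 (SD, n = 4), and Dusp6, at 22.8 ± 5.25 (SD, n = 4), were lowest and overlapped. Even Dusp6 had no rank below 3251 among the genes of any library. The counting could mix Dusp1 with gene models that overlap its long model, some on its own strand and others, such as Ergic1, on the other strand. It could also mix Dusp5 with an opposite-strand transcript. The strand setting is not given in the sources used here, and it would not separate Dusp1 from the models on its own strand.

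**Figure D1:**
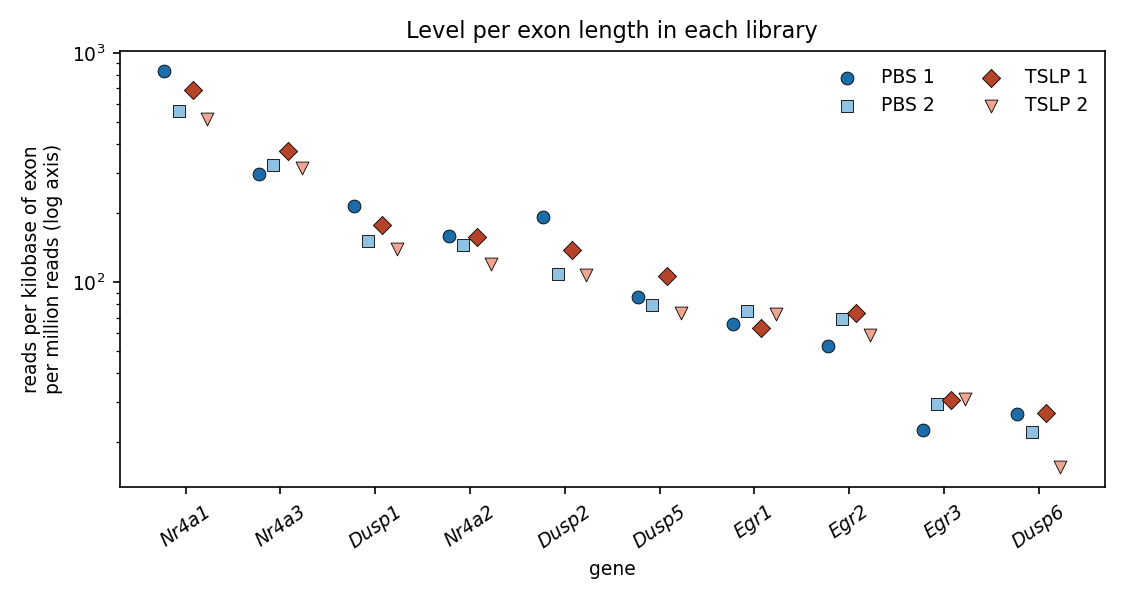
Level of each gene per exon length in the 4 libraries, in RPKM on a log axis, with genes in order of their mean. Nr4a1 (mean 650) lies above Nr4a3 (326) in every library, while Dusp1, Nr4a2 and Dusp2 overlap, as do Egr3 and Dusp6 at the low end.

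The members lie on 8 chromosomes, and in the GENCODE annotation of the mouse genome build GRCm38 (the mm10 build to which reads were mapped) Nr4a1 spans chr15:101254269-101274795, Nr4a2 chr2:57106830-57124003, Nr4a3 chr4:48045153-48086447 and Egr2 chr10:67535475-67542188. Dusp1 spans chr17:26505590-26562128, Dusp2 chr2:127336159-127338376, Dusp5 chr19:53529109-53542431 and Dusp6 chr10:99263231-99267489. Egr3 spans chr14:70077203-70082614. Start-site sequences from RefSeq (GRCm38.p6) were held for 8 of the 10 genes, and those of Egr1 and Egr3 were not analysed here. The 250 bases before the start were searched on both strands for TGACG, the core of the element bound by CREB. RefSeq gives 1 start site for each of these genes except Egr2, which has 5, and a gene was counted where any of its start sites matched. TGACG occurred in 19.8% of the 27025 genes with a start site, and in 6 of the 8 members (Egr2 at 3 of its 5 start sites, Nr4a1, Nr4a2, Nr4a3, Dusp1 and Dusp5), with 4 matches in each NR4A gene. The full element TGACGTCA, which contains TGACG on both strands, occurred in 1.77% of genes and in Dusp1 only among the members. The letters GCGNGGGCG, a site read by EGR proteins, occurred in 5.33% of genes and in Nr4a1, Nr4a2 and Dusp2. The CArG box, which is read by serum response factor, occurred in 1.62% of genes and in Egr2 (at 4 of the 5 start sites) and Dusp5. The AP-1 letters TGANTCA occurred in 7.82% of genes and in none of the members, and Dusp6 matched none of these motifs in this window. The upstream stretches of 4 genes that were higher in both replicate 1 libraries and of Egr2, which was not, are printed with the matches in capitals. The plus strand is shown for Nr4a1 (chr15:101266596-101266845), Dusp2 (chr2:127335909-127336158), Dusp5 (chr19:53528895-53529108) and Egr2 (chr10:67537619-67537868), and the minus strand for Dusp1 (chr17:26508520-26508722). Capitals mark TGACG or its complement in Nr4a1, Dusp1, Dusp5 and Egr2, the EGR site in Nr4a1 and Dusp2, and the CArG box in Dusp5 and Egr2.
Nr4a1: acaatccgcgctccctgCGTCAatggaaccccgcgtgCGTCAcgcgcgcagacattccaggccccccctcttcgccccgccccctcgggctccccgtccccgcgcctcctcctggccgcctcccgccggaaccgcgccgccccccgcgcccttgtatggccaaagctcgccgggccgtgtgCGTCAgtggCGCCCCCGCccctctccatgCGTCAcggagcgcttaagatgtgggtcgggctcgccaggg
Dusp1: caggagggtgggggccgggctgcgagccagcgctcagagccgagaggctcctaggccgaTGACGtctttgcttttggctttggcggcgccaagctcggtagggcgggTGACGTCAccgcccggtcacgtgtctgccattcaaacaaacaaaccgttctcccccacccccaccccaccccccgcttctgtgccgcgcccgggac
Dusp2: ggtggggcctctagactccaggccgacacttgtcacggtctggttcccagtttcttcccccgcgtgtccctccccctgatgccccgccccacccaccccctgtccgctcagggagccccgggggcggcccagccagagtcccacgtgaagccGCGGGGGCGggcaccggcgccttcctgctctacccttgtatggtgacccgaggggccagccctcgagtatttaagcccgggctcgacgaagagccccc
Dusp5: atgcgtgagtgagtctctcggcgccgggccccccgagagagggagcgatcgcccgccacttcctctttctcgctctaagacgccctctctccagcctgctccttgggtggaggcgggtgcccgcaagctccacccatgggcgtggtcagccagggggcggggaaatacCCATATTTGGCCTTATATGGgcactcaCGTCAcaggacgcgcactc
Egr2: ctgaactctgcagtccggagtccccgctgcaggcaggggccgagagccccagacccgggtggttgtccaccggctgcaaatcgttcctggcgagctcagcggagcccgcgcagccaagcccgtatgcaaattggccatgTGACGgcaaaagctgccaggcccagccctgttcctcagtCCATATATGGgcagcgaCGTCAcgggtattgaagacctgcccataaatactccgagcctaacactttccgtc

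At the other end of the transcripts, the longest annotated 3' UTR held the pentamer ATTTA, a part of AU-rich elements that mark RNAs for decay, at least 2 times in 8 of the 10 members. The same was true of 51.5% of 10486 genes tested with such a UTR. Egr3 had the most matches with 7 in 2645 bases, and Dusp5 and Dusp6 had 1 each. The longer letters TTATTTATT were found in Dusp1 only, against 8.57% of the genes.

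In bulk RNA, fewer cells that express a gene and less RNA per cell cannot be told apart. The study asked what TSLP changes in Treg cells, and the main comparison set the TSLP libraries against the PBS libraries. None of the 10 genes differed between TSLP and PBS by more than the spread between samples. With limma on log2(normalized count + 1) and Benjamini-Hochberg adjustment over all 11392 genes tested, 0 genes (0.00%) had an adjusted p under 0.05, and 192 genes (1.69%) had an unadjusted p under 0.05. edgeR and DESeq2 also called 0 genes, with 234 each at an unadjusted p under 0.05. None of the 10 genes had an unadjusted p under 0.05. Of the 10, 4 were higher and 6 lower with TSLP, and their median log2 fold change was −0.09, beside 0.01 for all genes tested. This median depended on single libraries, being 0.088 without PBS 1, 0.13 without TSLP 2 and −0.27 without TSLP 1. Both TSLP libraries were above both PBS libraries in 1 member, Egr3, beside 14.5% of all genes, and below them in none, beside 14.4% of all genes.

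Within the EGR genes, the normalized count (reads divided by the size factor of the library, given here and later for replicate 1 before replicate 2) of Egr1 was 3248 and 3612 under PBS and 3150 and 3488 under TSLP. Egr1 lies at chr18:34859823-34864984. Its 4 libraries lay within 1.146-fold of one another, the narrowest range of the 10 genes, and the groups overlapped. Its log2 fold change with TSLP was −0.05 (95% interval −0.53 to 0.44, limma, adjusted p = 1.0 with Benjamini-Hochberg adjustment). Egr3, which acts beside Egr2 as a brake on T cell activation, had 1092 and 1387 under PBS and 1499 and 1465 under TSLP. Both TSLP values were higher than both PBS values, by a small margin over PBS 2. The log2 fold change was 0.27 (95% interval −0.25 to 0.79, limma, unadjusted p = 0.273, adjusted p = 1.0 with Benjamini-Hochberg adjustment). The fold change of Egr3 was 0.44 on the log2 scale without PBS 2 and 0.096 without PBS 1. Egr2 had 1969 and 2513 under PBS and 2771 and 2136 under TSLP, so that its lowest and highest values came from replicate 1. It was thus higher with TSLP by 0.49 on the log2 scale between the replicate 1 libraries and lower by −0.23 between the replicate 2 libraries.

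Among the NR4A genes, Nr4a1 (Nur77), widely used as a reporter of antigen receptor signals, had 32266 and 21025 under PBS and 26780 and 19452 under TSLP. The TSLP libraries lay on either side of PBS 2. The mean was 26645 ± 7949 (SD, n = 2) in the PBS group and 23116 ± 5182 (SD, n = 2) in the TSLP group, a log2 fold change of −0.19 (95% interval −0.93 to 0.55, limma, adjusted p = 1.0 with Benjamini-Hochberg adjustment). Nr4a2 (Nurr1) had 7075 and 6332 under PBS and 7056 and 5212 under TSLP, so that the replicate 1 libraries of both groups were nearly equal. Nr4a3 (Nor1) had 19389 and 20752 under PBS and 24852 and 20134 under TSLP, and only TSLP 1 stood above the others. The log2 fold change was −0.14 for Nr4a2 and 0.16 for Nr4a3, each with an adjusted p of 1.0 (limma, Benjamini-Hochberg adjustment).

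Among the DUSP genes, Dusp1 and Dusp2 encode nuclear phosphatases that act on several MAP kinases. Dusp1 had 7830 and 5370 under PBS and 6497 and 4964 under TSLP. Dusp2 (PAC-1), best known from activated lymphocytes, had 4253 and 2339 under PBS and 3081 and 2310 under TSLP. PBS 1 was the highest library for both genes and the remaining libraries of the 2 groups overlapped. Dusp5 and Dusp6 encode phosphatases selective for ERK, one in the nucleus and one in the cytoplasm. Dusp5 had 2348 and 2108 under PBS and 2930 and 1952 under TSLP. Dusp6 had 912 and 746 under PBS and 933 and 525 under TSLP. In both genes the 2 TSLP libraries enclosed the 2 PBS libraries. The log2 fold changes were −0.19 for Dusp1, −0.24 for Dusp2, 0.10 for Dusp5 and −0.24 for Dusp6, each with an adjusted p of 1.0 (limma, Benjamini-Hochberg adjustment). Without PBS 1, that of Dusp2 was 0.19 in place of −0.24.

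**Figure D2:**
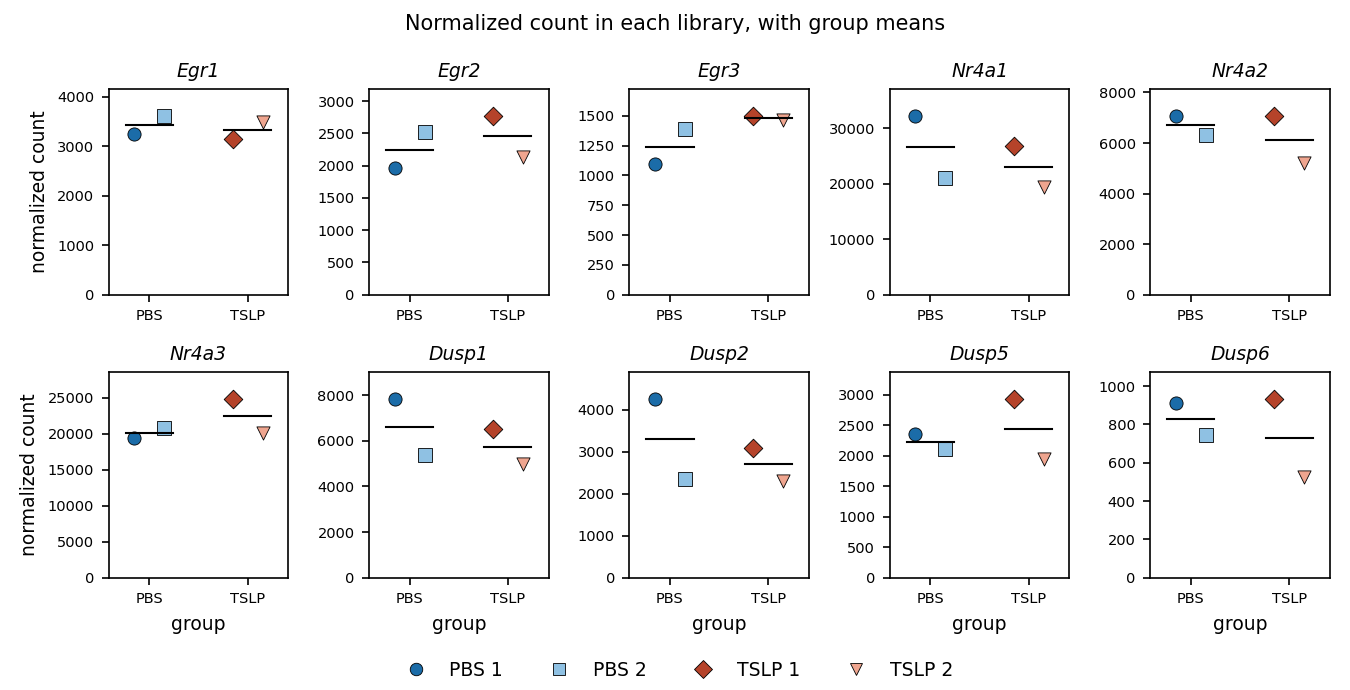
Normalized count of each of the 10 genes in each library, on linear axes that start at 0, with a line at the mean of each group of 2. Egr3 is the gene in which both TSLP libraries lie above both PBS libraries, while in Dusp1 and Dusp2 the highest library is PBS 1 (7830 and 4253).

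Set side by side at each replicate number, TSLP 1 against PBS 1 and TSLP 2 against PBS 2 gave unlike pictures, with 1 library against 1 and hence no test. At replicate 1, 5 of the 10 genes were higher with TSLP and the median difference was 0.01 on the log2 scale. At replicate 2, 1 gene was higher and the median was −0.11. Of all 11392 genes tested, 5712 were higher with TSLP at replicate 1 and 5663 at replicate 2. At both numbers, 2596 of them were higher and 2566 lower. Egr3 was higher at both numbers (0.46 and 0.08). Egr1 (−0.04 and −0.05), Nr4a1 (−0.27 and −0.11), Dusp1 (−0.27 and −0.11), Dusp2 (−0.47 and −0.02) and Nr4a2 (−0.0037 and −0.28) were lower at both. The differences of Egr2, Nr4a3, Dusp5 and Dusp6 had opposite signs at the 2 numbers, the widest gap being that of Egr2.

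**Figure D3:**
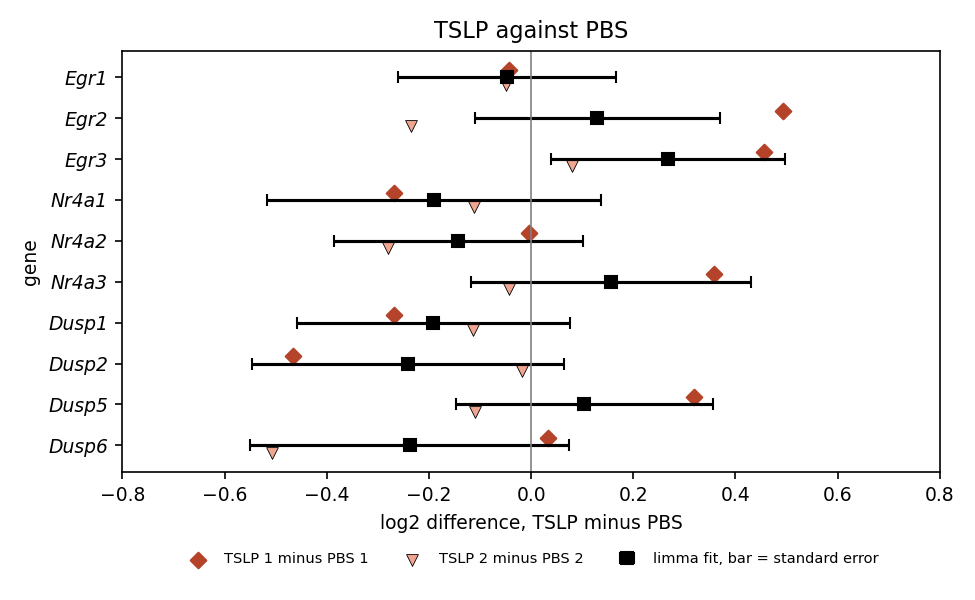
Difference between TSLP and PBS on the log2 scale for each gene, as the limma estimate with its standard error (squares and bars) and as the difference between the libraries of the same number (diamonds for replicate 1, triangles for replicate 2). The estimates run from −0.24 (Dusp2, Dusp6) to 0.27 (Egr3), and for Egr2, Nr4a3, Dusp5 and Dusp6 the 2 markers lie on opposite sides of 0.

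The comparison of replicate 1 with replicate 2 gave larger differences than that of TSLP with PBS for all 4 DUSP genes, Nr4a1 and Nr4a2, which were higher in replicate 1, and for Egr1, which was lower. In 6 members (Nr4a1, Nr4a2, Dusp1, Dusp2, Dusp5 and Dusp6) both replicate 1 libraries were above both replicate 2 libraries, beside 17.2% of all genes tested. The share was 20.6% among the 4488 genes with a mean normalized count of at least 500, a level that all 10 members exceed. In 1 member, Egr1, both were below, beside 17.8% of all genes. The median difference over the 10 genes was 0.33 on the log2 scale, beside −0.02 for all genes tested. It was 0.16 in the PBS pair, with 6 genes higher in PBS 1, and 0.40 in the TSLP pair, with 9 higher in TSLP 1. By limma with a term for treatment and Benjamini-Hochberg adjustment, however, no gene (0.00%) had an adjusted p under 0.05 for the replicate number, and 455 genes had an unadjusted p under 0.05 (1.83% of all genes higher and 2.16% lower in replicate 1). That limma fit leaves 1 residual degree of freedom per gene, moderated across genes. Its residual is the gap between the PBS pair and the TSLP pair, so its p-values do not measure a spread within a group. edgeR called 0 genes, with 424 at an unadjusted p under 0.05. DESeq2 called 4 (Gadd45b, Ppp1r15a, Hspa1a and Eps8l1), with 463 at an unadjusted p under 0.05, and no member was among the 4.

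Dusp2 had the largest difference of the 10. PBS 1 was 1.82-fold above PBS 2 and TSLP 1 was 1.334-fold above TSLP 2, a fitted log2 difference of 0.64 ± 0.25 (SE, limma, unadjusted p = 0.0240, adjusted p = 0.952 with Benjamini-Hochberg adjustment). It was the member with an unadjusted p under 0.05. Dusp6 differed more in the TSLP pair (1.78-fold) than in the PBS pair (1.22-fold), with a fitted difference of 0.56 (95% interval −0.04 to 1.16). Dusp5 likewise was 1.501-fold higher in TSLP 1 and 1.11-fold in PBS 1, whereas Dusp1 differed by 1.46-fold in the PBS pair and by 1.31-fold in the TSLP pair. All 4 DUSP genes were thus higher in replicate 1 in both groups, with the gap unevenly placed.

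Nr4a1 was 1.53-fold higher in PBS 1 than in PBS 2 and 1.38-fold higher in TSLP 1 than in TSLP 2. Its fitted log2 difference was 0.54 ± 0.37 (SE, limma, unadjusted p = 0.169, adjusted p = 0.952 with Benjamini-Hochberg adjustment), and the interval from −0.26 to 1.339 includes 0. Nr4a2 differed by 1.12-fold in the PBS pair and by 1.354-fold in the TSLP pair. Nr4a3 was lower in PBS 1 than in PBS 2 (0.934-fold) and higher in TSLP 1 than in TSLP 2 (1.23-fold), so that the NR4A genes did not move as one. Of the EGR genes, Egr1 was lower in replicate 1 in both groups (0.899-fold and 0.903-fold), and Egr2 and Egr3 were lower in PBS 1 (0.783-fold and 0.788-fold) but not in TSLP 1 (1.30-fold and 1.02-fold). Their fitted differences were −0.15 for Egr1, 0.01 for Egr2 and −0.16 for Egr3, none with an unadjusted p under 0.05 by limma.

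**Figure D4:**
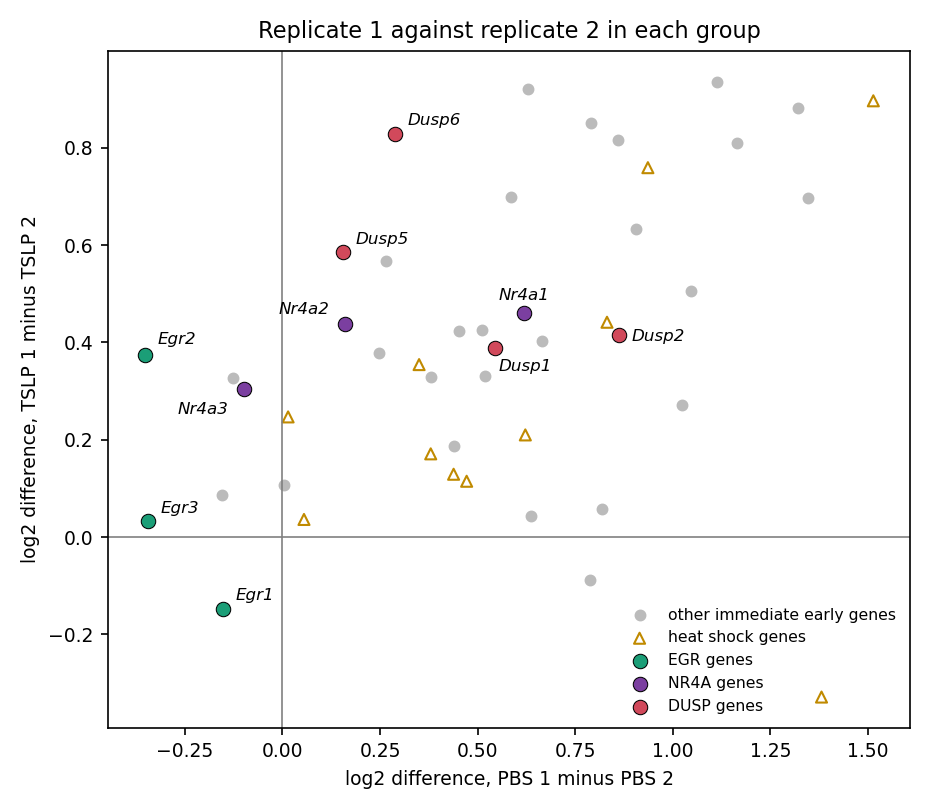
Difference between replicate 1 and replicate 2 on the log2 scale in the PBS pair (horizontal) and in the TSLP pair (vertical), for the 10 genes and, at a mean normalized count of at least 500, for 25 other immediate early genes and 11 heat shock genes. The DUSP genes, Nr4a1 and Nr4a2 lie in the upper right quadrant together with most of the grey points and triangles, while the EGR genes and Nr4a3 lie to the left of 0.

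Partners and relatives of the 10 genes were read from lists. These lists were chosen with earlier results of these data known, so their counts are descriptions and not independent support. A gene given as having the most reads of its list does so over the 4 libraries together, not scaled to length. Of the EGR partners, Nab1 and Nab2, which bind EGR proteins and repress their activity, and Egr4, none had an unadjusted p under 0.05 for TSLP or for the replicate number. Nab1 had the most reads, with 1167 and 1631 under PBS and 1791 and 1358 under TSLP, an order of libraries shared with Egr2. Of 6 other MAP kinase phosphatase genes, Dusp9 had no reads and 5 were tested. Dusp4, with the most reads (though fewer than Dusp10 in PBS 1), had 5826 and 6561 under PBS and 9081 and 6927 under TSLP, with both TSLP libraries above both PBS libraries (log2 fold change 0.36, limma, unadjusted p = 0.171, adjusted p = 1.0 with Benjamini-Hochberg adjustment). Dusp10, which acts on JNK and p38, had 7773 and 4191 under PBS and 6398 and 4252 under TSLP. It followed the pattern of Dusp1 and Dusp2, with a replicate difference of 0.74 on the log2 scale (limma, unadjusted p = 0.0146, adjusted p = 0.952 with Benjamini-Hochberg adjustment).

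The kinase genes upstream were split in direction. Of 24 genes of the RAS-ERK route, 10 were higher and 14 lower in replicate 1, with a median of −0.12 on the log2 scale. The pairs differed, with 6 of the 24 higher in PBS 1 (median −0.34) and 15 higher in TSLP 1 (median 0.085). A single one had an unadjusted p under 0.05, Rps6ka3 (RSK2, a kinase activated by ERK), which was lower in replicate 1 by −0.66. Of 12 calcineurin and NFAT genes 6 were higher (median 0.03), and of 9 JNK and p38 kinase genes tested 5 were higher (median 0.03, most reads on Map2k3 at 0.12), none with an unadjusted p under 0.05 by limma. The JNK and p38 genes had a median of 0.069 in the PBS pair and of −0.099 in the TSLP pair. Of 8 tested genes that Egr2 and Egr3 are known to act on, 4 were higher and 4 lower in replicate 1 (median −0.01, most reads on Cblb at −0.04), also with none at an unadjusted p under 0.05 by limma. Their median was −0.16 in the PBS pair and 0.18 in the TSLP pair.

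Higher values in replicate 1 were also common among 29 other immediate early genes, which respond to a stimulus without new protein synthesis. Of these, 27 were higher and 2 lower in replicate 1 (median 0.47), 24 had both replicate 1 libraries above both replicate 2 libraries, and 12 had an unadjusted p under 0.05, all of them higher. These were Fos, Fosb, Junb, Atf3, Ier2, Ier3, Klf4, Maff, Gadd45b, Nfkbia, Ppp1r15a and Csrnp1. Fos, a subunit of the AP-1 factor, had 10585 and 4723 under PBS and 7481 and 4265 under TSLP, a log2 difference of 0.99 (limma, unadjusted p = 0.00284, adjusted p = 0.952 with Benjamini-Hochberg adjustment). Tnfaip3 (A20), with the most reads of the list, differed by 0.42. The 12 heat shock genes were all higher in replicate 1 in the fit (median 0.38), and Hspa1a, Hspa1b, Hspb1 and Dnajb1 had an unadjusted p under 0.05. All 12 were higher in PBS 1 than in PBS 2 (median 0.55), and 11 were higher in TSLP 1 than in TSLP 2 (median 0.23). Hspa1a, an inducible HSP70 chaperone, had 5552 and 1944 under PBS and 3572 and 1919 under TSLP, with the smallest p of all genes higher in replicate 1 (log2 difference 1.20, limma, unadjusted p = 0.000387, adjusted p = 0.952 with Benjamini-Hochberg adjustment). Hsp90ab1, with the most reads of them, differed by 0.28. Between TSLP and PBS, none of the immediate early or heat shock genes had an unadjusted p under 0.05, and 23 of the 29 immediate early genes were lower with TSLP (median −0.26). Between libraries of the same number, the median was −0.27 at replicate 1 and −0.099 at replicate 2, with 16 genes lower and 4 higher at both. Beside them, 2566 of all 11392 genes were lower and 2596 higher at both. The direction turned without PBS 1, with 25 of the 29 higher with TSLP (median 0.13), and without TSLP 2, with 21 of the 29 higher (median 0.037). Leaving out either library makes the replicate numbers uneven between the groups.

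**Figure D5:**
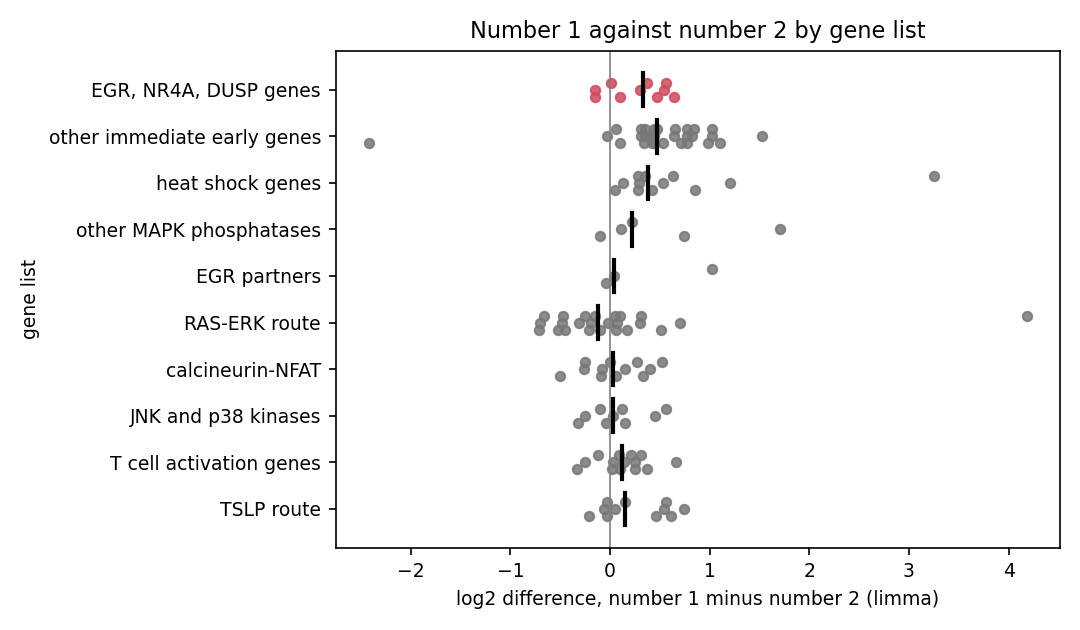
Difference between replicate 1 and replicate 2 on the log2 scale (limma with a term for treatment) for every tested gene of 10 lists, with the median of each list as a vertical bar. The medians are 0.33 for the EGR, NR4A and DUSP genes, 0.47 for the other immediate early genes and 0.38 for the heat shock genes, while those of the RAS-ERK route, the calcineurin and NFAT genes and the JNK and p38 kinases are between −0.12 and 0.03. Points beyond 1.5 on either side belong to Fosl1, Ier3, Hspb1, Dusp8 and Spry2, which had few reads.

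Of 11 genes of the TSLP route, 7 were higher and 4 lower in replicate 1 (median 0.15), with the most reads on Jak1 (−0.06). In the PBS pair 7 were higher (median 0.27), and in the TSLP pair 9 (median 0.15). Cish, Socs1 and Socs3, STAT5 targets that feed back on cytokine signals, were also higher in replicate 1, each at an unadjusted p under 0.05 (limma, 0.54, 0.74 and 0.61 on the log2 scale, each with an adjusted p of 0.952 with Benjamini-Hochberg adjustment). Between TSLP and PBS their log2 fold changes were −0.05, −0.17 and −0.06. Socs2 and Pim1 of the same list had fitted replicate differences of 0.57 and 0.46, at an unadjusted p of 0.151 and 0.148 by limma. Socs2 was lower in TSLP 1 than in TSLP 2 (−0.067). The log2 fold changes with TSLP were −0.38 for Socs2 and −0.035 for Pim1. Of 14 genes of T cell activation, 11 were higher in replicate 1 in the fit (median 0.12) and in the PBS pair (median 0.26) but 5 in the TSLP pair (median −0.05), with the most reads on Ctla4 (0.09) and with Nfkbid, a nuclear modulator of NF-kB, at an unadjusted p under 0.05 (0.66, limma).

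The sums of the Treg and of the B cell markers were lower in replicate 1 in both groups. Those of the CD8 T cell, myeloid and conventional T cell markers differed in opposite directions in the PBS pair and in the TSLP pair. The part of any of these markers in the differences above was not tested. In PBS 1 the Treg marker Foxp3 was lowest, at 2437, against 4507 to 5068 in the other libraries (log2 difference of the replicates −0.61, limma, unadjusted p = 0.0472, adjusted p = 0.952 with Benjamini-Hochberg adjustment). Of the 6 Treg markers 5 were lower in replicate 1, and their sum ranged from 3160 cpm (reads on a gene scaled to the total on genes) in PBS 1 to 4036 in TSLP 2. The 3 B cell markers summed to 0.618 and 10.4 cpm under PBS and to 4.08 and 9.35 cpm under TSLP, with the most reads on Cd79b, which was lower in replicate 1 (limma, unadjusted p = 0.0225, adjusted p = 0.952 with Benjamini-Hochberg adjustment). The 2 CD8 T cell markers summed to between 7.83 and 13.4, with the most reads on Cd8b1. The 6 myeloid markers summed to 61.5 and 40.1 cpm under PBS and to 41.15 and 42.45 cpm under TSLP, mostly from Cst3, with no reads on Adgre1. Of the 4 myeloid markers tested, 2 were higher and 2 lower in replicate 1, and 1 was higher and 3 lower with TSLP, none with an unadjusted p under 0.05 by limma. Between replicates, Cd68 (1.51) and Lyz2 (−2.37) had the largest log2 differences in each direction, and both were named after their values were seen. Cd68 was at 15.4 and 6.15 cpm under PBS and at 5.02 and 1.56 cpm under TSLP, higher in replicate 1 of each group, with no overlap between the groups (TSLP log2 fold change −1.75, limma, unadjusted p = 0.0601, adjusted p = 1.0 with Benjamini-Hochberg adjustment). Lyz2 was at 0.0883 and 4.01 cpm under PBS and at 3.15 and 3.89 cpm under TSLP, lowest in PBS 1 and with overlapping groups (TSLP log2 fold change 2.07, limma, unadjusted p = 0.205, adjusted p = 1.0 with Benjamini-Hochberg adjustment). Of the 5 erythroid markers, 4 encode haemoglobin chains and stood at 0 throughout. The other, Alas2, had 0 reads in PBS 1 and PBS 2, 3 in TSLP 1 and 7 in TSLP 2, and did not pass the filter. How reads matching several genes were counted is not given in the sources used here. The values of 0 are therefore not read as absence of red cell RNA. The 5 genes of conventional T cells summed to 1186 and 1239 cpm under PBS and to 1379 and 1262 cpm under TSLP. Satb1 had the most reads of them (857 to 969 cpm). In the fit 4 of the 5 were higher and 1 lower in replicate 1 (median 0.12), with 2 higher in both groups. Only Cd40lg, which activated helper T cells present, had an unadjusted p under 0.05. It was higher in replicate 1 (log2 difference 1.04, limma, unadjusted p = 0.00264, adjusted p = 0.952 with Benjamini-Hochberg adjustment).

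Gene length also moved with the replicates. Over 2635 abundant genes (mean normalized count of 1000 or more) the difference between PBS 1 and PBS 2 fell with exon length (Spearman rho −0.657 across genes of the same libraries, which are not independent), and that between TSLP 1 and TSLP 2 did not follow it (rho 0.050). The exons of the 10 genes add up to 2003 bases (Dusp2) to 5987 bases (Nr4a3), beside a median of 4466 over genes tested. In the TSLP pair, 9 of the 10 genes, all but Egr1, were higher in TSLP 1, with a median of 0.40 on the log2 scale, beside 5683 of all 11392 genes. In the PBS pair 6 were higher in PBS 1, with a median of 0.16, beside 5491 of all genes. With the trend over length taken out of every library, the fitted replicate differences were 0.48 for Nr4a1, 0.28 for Nr4a2, 0.39 for Dusp1, 0.46 for Dusp2, 0.22 for Dusp5 (0.37 with the trend left in) and 0.47 for Dusp6, and the median of the 10 genes was 0.25 in place of 0.33. The part of length in these differences was not tested. The number 1 or 2 did not mark a difference shared by most genes. Over all 11392 genes, the differences in the PBS pair and in the TSLP pair had a Pearson r of 0.001, and of 0.093 over 2716 genes with a mean of 1000 or more. A total of 24.0% of all genes were higher in replicate 1 in both groups, against 25 of the 29 other immediate early genes and 6 of the 10 genes.

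Genes with the most similar profile were sought among 8164 others with a mean normalized count of at least 100, by root mean square distance over the 4 libraries to the mean centred log2 profile of the 10. This profile was 0.10 and −0.06 under PBS and 0.16 and −0.20 under TSLP. The nearest genes were Arih1 (distance 0.018), Trf (0.019), Ddx47 (0.023), Mknk2 (0.025) and Slc35c1 (0.025), none of them on the gene lists. The 10 genes themselves lay farther from their own mean profile, from 0.057 for Nr4a2 and 0.11 for Dusp5 to 0.27 for Dusp2 and Egr3, so that the mean describes Nr4a2 and Dusp5 better than the rest. Outside all lists, Eps8l1 and Penk, with Hspa1a, had the smallest p for higher values in replicate 1, and Zdhhc21, Arid3b and Ttn for lower values. Penk, which encodes the precursor of enkephalins, had 2670 and 1112 under PBS and 2106 and 1124 under TSLP (log2 difference 1.08, limma, unadjusted p = 0.000675, adjusted p = 0.952 with Benjamini-Hochberg adjustment).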

How the data were processed

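Per the methods of the study, libraries came from a directional kit, 50-base single-end reads were mapped to mm10 with Hisat2 and counted with HTSeq v1.99.2, and DESeq2 v1.34.0 was used. The deposited signal is the authors' read count per gene divided by a size factor per library (0.957 to 1.06), from which whole reads were recovered. The gene annotation is not given in the sources used here, and the labels and the methods name different RNA kits. Groups and replicate numbers follow the sample titles. limma 3.58.1 (trended eBayes) was fitted in R 4.3.3 to log2(normalized count + 1) over 11392 genes with at least 10 in at least 2 libraries, for treatment, and for replicate number with a term for treatment. edgeR 4.0.16 and DESeq2 1.42.0 were run on the recovered reads. Other alternatives changed the scaling, pseudocount, filter, length trend, replicate block or set of libraries. Reads per kilobase used GENCODE M21 exons. A gene at 0 could have had up to 3 reads (0.255 to 0.292 cpm), counting error only. The 10 genes and all lists were chosen with earlier results of these data known. Genes named are the 10, list genes with an unadjusted p under 0.05 or the most reads of their list, the 5 nearest profiles and the 3 smallest p in each direction of the replicate comparison. Egr4, Nab2, Dusp9, Adgre1, Alas2, Cd68, Lyz2, Fosl1, Dusp8, Spry2, Socs2, Pim1 and the genes called by alternatives were named besides. Some list genes are not reported here. The date-like names of 27 genes were left as they were.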

Additional observations from a re-analysis of the deposited data

Results flagged for a closer look

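Egr2, Egr3 and Nr4a3 differed between replicate 1 and replicate 2 in opposite directions in the PBS pair and in the TSLP pair. The log2 difference was −0.35 with PBS and 0.38 with TSLP for Egr2, a gap of 0.73. It was −0.34 and 0.03 for Egr3, a gap of 0.38, and −0.10 and 0.30 for Nr4a3, a gap of 0.40. With 1 library per cell of this comparison, the gap was not tested.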

How the results depend on the processing

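With 2 libraries per group, the intervals of the 10 genes admit TSLP effects of up to 0.41 to 0.79 upward and −0.25 to −0.95 downward on the log2 scale. No gene was called for TSLP under any of the 15 alternatives, and the genes with an unadjusted p under 0.05 went from 192 to 358 with no filter, to 1858 without PBS 2 and to 79 without TSLP 2. The replicate block left the calls at 0, with 258 genes at an unadjusted p under 0.05 in limma, 215 in edgeR and 257 in DESeq2 (the last chosen after seeing the data), and a median over the 10 genes of −0.09 in limma. The differences in the PBS pair and in the TSLP pair had an r of 0.001 over all genes and of 0.093 at a mean of 1000 or more. These correlations cannot settle whether the numbers mark pairs. The number is not read as a pairing because the sources used here do not say what it shares. In 6 of the 10 genes and 25 of the 29 other immediate early genes, however, replicate 1 was higher in both groups. Leaving out each library moved the TSLP median of the 10 genes between −0.27 and 0.13 and turned the direction of several genes. The ranges were −0.12 to 0.030 for Egr1, −0.058 to 0.32 for Egr2, −0.50 to 0.12 for Nr4a1, −0.36 to 0.076 for Nr4a2, −0.46 to 0.081 for Dusp1, −0.67 to 0.19 for Dusp2, −0.19 to 0.40 for Dusp5 and −0.65 to 0.18 for Dusp6. Those of Egr3 (0.096 to 0.44) and Nr4a3 (0.0054 to 0.31) lay above 0, the latter barely without TSLP 1. Without PBS 2 both Egr3 and Dusp2 fell under an unadjusted p of 0.05 in limma, with a lone PBS library assumed to vary like the TSLP libraries. For the replicate number, 4 genes were called by DESeq2 (Gadd45b, Ppp1r15a, Hspa1a, Eps8l1), 5 with a minimum of 50 (Gdap10, Ptp4a1, Cep85l, Gm4759, Hspa1a) and 2 with the length trend removed (Mpp7, Hspa1a), never a member, and 711 had an unadjusted p under 0.05 with no filter. The median of the 10 genes ran from 0.16 without either TSLP library to 0.40 without either PBS library, values of 1 pair with no test. Egr2 turned to −0.059 with the length trend removed. Dusp2 kept an unadjusted p under 0.05 in all tested alternatives, and Nr4a1 and Dusp1 reached it with DESeq2 (0.0130 and 0.0455), with the length trend removed (0.0165 and 0.0321) and without a term for treatment (0.0346 and 0.0375), unadjusted in each case. Dusp6 reached it without a term for treatment (0.04997) and with no filter (0.0487). Over all genes, 463 of 11392 had such a p with DESeq2 and 545 of 11392 without a term for treatment. With the length trend removed it was 660 of 10944, and with no filter 711 of 13945, beside 455 of 11392 in the main fit.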
